A study of Mus musculus with 31 samples.

Results

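The genes that make, carry and buffer lactate were followed through every RNA sequencing sample of a study of mouse pancreatic cancer cells. There were 9 of them, taken by their symbols from the 3 deposited count tables, which list 55487, 56980 and 56941 genes. They were the lactate dehydrogenase genes Ldha and Ldhb, the monocarboxylate carrier genes Slc16a1, Slc16a3 and Slc16a7, the carrier chaperone Bsg, the carbonic anhydrase genes Car9 and Car12, and the bicarbonate carrier gene Slc4a7. Each symbol had 1 row in each table. After the filter on low counts, 6 of the 9 genes were tested in the spheroids with conditioned media, 7 in 2D and 3D culture, and 8 in the rescue experiment. Ldhb was tested in none of them, Slc16a7 only in the rescue experiment, and Car12 in all but the conditioned media.

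Glycolysis ends in pyruvate, which lactate dehydrogenase turns into lactate while it returns NADH to NAD+. The A subunit, encoded by Ldha, favours lactate formation, and the B subunit, encoded by Ldhb, is common in tissues that burn lactate. Lactate leaves the cell together with a proton through the monocarboxylate carriers MCT1, MCT4 and MCT2, which Slc16a1, Slc16a3 and Slc16a7 encode, and MCT1 and MCT4 need basigin, the product of Bsg, to reach the membrane. The exported acid is buffered outside the cell by carbonic anhydrases IX and XII (Car9 and Car12), and the sodium bicarbonate cotransporter NBCn1 (Slc4a7) brings bicarbonate back in. In hypoxic tumors, Ldha, Slc16a3 and Car9 are textbook targets of HIF-1, and Ldha and Slc16a1 are known targets of Myc.

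The cells were Panc02, a murine pancreatic adenocarcinoma line, in 31 samples of 11 groups. In the first experiment, spheroids in Matrigel were kept in control medium (Ctrl), in medium conditioned by unpolarized bone marrow macrophages (M0-CM) or in medium conditioned by macrophages given IFNγ and LPS (M1-CM), with 3 samples each. In the second, WT and Cxcl5-/- cells were grown as a 2D layer or as 3D spheroids in Matrigel, again with 3 samples each. The rescue experiment used 3D culture throughout and held WT (2 samples), Cxcl5-/- (2 samples), Hif1aOE Cxcl5-/- (3 samples) and MycOE Cxcl5-/- (3 samples). Cxcl5 encodes a neutrophil-attracting chemokine and was targeted with CRISPR/Cas9 from a lentiviral vector under puromycin selection. Whether the line is a single clone was not given in the sources used here. The rescue lines are Cxcl5-/- cells that also carry a retroviral vector with stabilized mutant mouse Hif1a or with Myc. No line with an empty retroviral vector was among the samples. Titles of the rescue WT and Cxcl5-/- samples carry a prefix that the overexpression lines lack. Their total counts were at most 43890492, against at least 51419869 in the overexpression lines. The gene added, the vector and a possible difference between sets of libraries cannot be told apart. The labels do not say whether samples of a group came from separate cultures. The study's methods speak of biological replicates and independent experiments in general, without naming these libraries. The p-values measure the spread between these samples, which may be in part technical.

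Total counts ran from 41542533 to 78498230 per sample, and levels are given as CPM, the count scaled by the TMM-adjusted size of its library. A gene was called when the edgeR quasi-likelihood test gave an adjusted p under 0.05 over all genes tested. The mRNA of Cxcl5 itself was 27.0 ± 2.17 CPM (SD, n = 3) in 3D WT. In the libraries that carry the 3D Cxcl5-/- label it was higher rather than lower, at 50.6 ± 13.1 CPM (SD, n = 3). The study reported the knockout by immunoblot for CXCL5 protein, and the mRNA level does not show whether protein is made. Cxcl5 mRNA was 65.97 ± 2.47 CPM (SD, n = 2) in rescue WT and 38.4 ± 2.51 CPM (SD, n = 2) in rescue Cxcl5-/-. Hif1a fell by 1.21 on the log2 scale and Myc by 1.75 between 3D WT and libraries under the 3D Cxcl5-/- label. Myc stood at 490 ± 81.6 CPM (SD, n = 3) in MycOE Cxcl5-/- and 21.1 ± 1.59 CPM (SD, n = 2) in rescue Cxcl5-/-. In rescue WT it stood at 47.7 ± 2.28 CPM (SD, n = 2), so MycOE Cxcl5-/- lay far above the WT level of Myc. Against rescue Cxcl5-/-, Hif1a rose by a log2 fold change of 0.94 in Hif1aOE Cxcl5-/- and 0.90 in MycOE Cxcl5-/-. Hif1a stood at 266 ± 27.2 CPM in Hif1aOE Cxcl5-/- and 258 ± 15.5 CPM in MycOE Cxcl5-/- (SD, n = 3, log2 difference of the latter from the former -0.04 ± 0.09 SE, edgeR, adjusted p = 0.826). All Hif1aOE libraries lay below the rescue WT libraries, which averaged 314 ± 14.4 CPM (SD, n = 2, log2 -0.24 ± 0.10 SE, edgeR, adjusted p = 0.0999). Of 9 epithelial and duct markers, Epcam and Cdh1 had no more than 3 counts in any library of the conditioned media, of 2D culture and of the group labelled 3D Cxcl5-/-. The summed level of these markers was 870 to 1119 CPM in 3D WT and 263 to 282 CPM in libraries under the 3D Cxcl5-/- label, and that of 8 fibroblast markers, some of which Panc02 cells also express, was 3680 to 4231 and 1074 to 1226 CPM. The sums do not stand for each marker. Of 7 epithelial markers tested, 3 were called higher under that label and 3 lower, and of 7 fibroblast markers, 2 higher and 4 lower. Of all genes tested, 19.7% were called higher and 25.3% lower. Between 35865 and 35921 genes had over 3 counts in the rescue WT libraries, against 23421 to 26302 in the other rescue libraries. In the culture experiment this number was 23915 to 25611 in 3D WT and 23542 to 23720 under the 3D Cxcl5-/- label. It was 20479 to 21740 in 2D WT and 20837 to 21223 in 2D Cxcl5-/-. These values moved with several results below and their part in them was not tested. In bulk RNA, fewer cells of a type and less RNA per cell cannot be told apart.

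HIF-1 and Myc, the factors overexpressed in the rescue experiment, bind short DNA words. The sequences just upstream of 4 of these genes, where such words can be looked for, are shown. Each is the 250 bases before the start site in RefSeq (GRCm38.p6), 5′ to 3′ on the plus strand, and capitals mark ACGTG, the core of the HIF-1 binding element, on either strand, along with CACGTG, the E-box read by Myc and its relatives. CACGTG contains ACGTG on both strands.
Ldha, chr7:46845554-46845803: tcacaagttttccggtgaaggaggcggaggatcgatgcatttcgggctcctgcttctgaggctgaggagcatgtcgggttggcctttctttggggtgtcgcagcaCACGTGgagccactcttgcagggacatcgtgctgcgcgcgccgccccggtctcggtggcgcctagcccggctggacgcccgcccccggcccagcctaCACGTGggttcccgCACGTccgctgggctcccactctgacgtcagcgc
Slc16a1, chr3:104638414-104638663: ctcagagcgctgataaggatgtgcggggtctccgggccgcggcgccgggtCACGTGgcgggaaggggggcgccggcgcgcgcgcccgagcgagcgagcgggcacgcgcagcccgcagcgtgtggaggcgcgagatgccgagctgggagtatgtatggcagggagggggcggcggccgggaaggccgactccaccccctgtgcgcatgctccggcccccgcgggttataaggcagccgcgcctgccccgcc
Slc16a3, chr11:120948817-120949066: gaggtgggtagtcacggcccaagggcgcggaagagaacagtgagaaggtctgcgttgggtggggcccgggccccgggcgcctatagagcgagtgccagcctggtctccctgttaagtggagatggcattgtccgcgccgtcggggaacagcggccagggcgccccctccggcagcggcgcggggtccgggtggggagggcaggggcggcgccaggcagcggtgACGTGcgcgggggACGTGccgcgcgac
Car9, chr4:43506776-43507025: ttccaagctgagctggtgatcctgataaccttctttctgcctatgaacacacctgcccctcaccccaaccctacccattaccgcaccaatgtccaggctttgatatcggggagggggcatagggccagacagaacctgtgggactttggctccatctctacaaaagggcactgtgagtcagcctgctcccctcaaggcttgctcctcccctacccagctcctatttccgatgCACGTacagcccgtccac
The Ldha window held 2 CACGTG words and 1 further ACGTG. The Slc16a1 window held 1 CACGTG. The Slc16a3 window held 2 ACGTG words and the Car9 window 1, all without the full E-box. The windows of Ldhb, Car12 and Slc4a7 and of a second Ldha start site held none of these letters. Among all 32851 RefSeq promoter windows of the same length, 16.6% held ACGTG and 6.0% held CACGTG. These matches describe letters, and binding was not measured. Sequences were matched for 7 of the 9 genes. Bsg and Slc16a7 are named only.

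In the gene annotation of GRCm38, Ldha spans chr7:46841475-46855627 on the plus strand, Slc16a1 chr3:104638668-104658462 plus, Slc16a3 chr11:120948480-120960868 plus, Bsg chr10:79704491-79711969 plus, Car9 chr4:43506966-43513729 plus, Car12 chr9:66713686-66766845 plus and Slc4a7 chr14:14702279-14799940 plus. Ldhb lies at chr6:142490249-142507957 and Slc16a7 at chr10:125219270-125389465, both on the minus strand. Per kilobase of exon in 3D WT, the level of Bsg was 893 ± 126 CPM per kb and that of Ldha was 796 ± 48.7 (SD, n = 3). Their ranges overlapped. Slc16a1 followed at 121 ± 6.14, then Car9 at 11.6 ± 2.36 and Slc4a7 at 5.30 ± 0.77 CPM per kb, each without overlap with its neighbour. Slc16a3, the carrier best known from hypoxic tumors, reached only 0.74 ± 0.12 CPM per kb, and Car12, Ldhb and Slc16a7 reached at most 0.104 CPM per kb in any 3D WT library.

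The first question was how 3D culture changed this set in WT cells. From 2D to 3D, 6 of the 7 tested genes rose and 0 fell, where 22.2% of all genes tested were called higher, 22% lower and 44.3% in either direction. Car12, among the 6, had 0 counts in 2D culture. It passed the filter through 3D WT and could only be called higher. Of all called genes, 50.24% were higher, and 34.68% with library totals in place of TMM scaling. The rise was smallest for the main carrier Slc16a1 and largest for the carbonic anhydrases. The bicarbonate carrier Slc4a7 was the tested gene that was not called.

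Ldha stood at 1122, 1047 and 1168 CPM in the 2D WT libraries and at 2810.1, 2598 and 2494 CPM in 3D WT. The groups did not overlap, and 3D WT was 2.37-fold higher (log2 fold change 1.24 ± 0.10 SE, edgeR, adjusted p = 2.52e-07). Reads of Ldha could be split with its near-identical processed pseudogenes, so its level is uncertain to that extent. Ldhb had 0 counts in 28 of the 31 libraries, and the others were 2 libraries of 3D WT, with 8 and 7 counts, and 1 library of MycOE Cxcl5-/-, with 13 counts. A count of 0 allows a share of at most 0.00173% to 0.00882% of the summed Ldha and Ldhb counts, depending on the library, by counting error only. The Ldhb share was 0.00394% in 3D WT and 0% in 2D WT (two-sided exact permutation test, p = 0.4, where 0.1 is the smallest p that 3 against 3 samples allow).

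Among the carriers, Slc16a1 (MCT1) stood at 410.1, 432 and 425 CPM in 2D WT and at 545, 507 and 560.3 CPM in 3D WT, which did not overlap. Its rise was 1.27-fold (log2 0.35 ± 0.07 SE, edgeR, adjusted p = 0.00155) and was no longer called when library totals replaced TMM scaling (log2 0.13, adjusted p = 0.171). Slc16a3 (MCT4) stood at 1.43, 1.55 and 1.11 CPM in 2D WT and at 4.65, 3.36 and 3.76 CPM in 3D WT. It was 2.88-fold higher (log2 1.53 ± 0.22 SE, edgeR, adjusted p = 6.6e-05), from a level that remained low. Slc16a1 made up 99.7% of the summed counts of both carriers in 2D WT and 99.3% in the WT spheroids, a difference of -0.40 percentage points (two-sided exact permutation test, p = 0.1, the smallest possible). Slc16a7 (MCT2) had 0 counts in all 2D libraries and 17, 7 and 14 counts in 3D WT, at least 4.33-fold over a floor of 3 counts per library in 2D WT. It was too low to be tested.

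Bsg, which MCT1 and MCT4 need, stood at 192, 167 and 188 CPM in 2D WT and at 1804, 1365 and 1689 CPM in 3D WT. The rise was 8.88-fold (log2 3.15 ± 0.12 SE, edgeR, adjusted p = 4.9e-10), and no 3D WT library came near the 2D range. Bsg thus went from a level per kilobase close to that of Slc16a1 in 2D WT (101 ± 7.38 against 95.4 ± 2.52 CPM per kb, SD, n = 3) to the top of the set in 3D WT.

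Car9 was nearly silent in 2D, with 0.2504, 0.388 and 0.362 CPM in 2D WT, and reached 22.6, 24.6 and 32.9 CPM in 3D WT. This was the largest fold change in the set that could be estimated, 78.4-fold (log2 6.29 ± 0.25 SE, edgeR, adjusted p = 5.99e-10). The antisense gene Gm12454 overlaps the start of Car9 and stood at 0.637 CPM in 2D WT and 2.00 CPM in 3D WT. Whether the counting used the strand was not given in the sources used here, so reads from this pair cannot be told apart. Car12 had 0 counts in the 6 libraries of 2D culture and 36, 8 and 39 counts in 3D WT. It was at least 9.26-fold higher in 3D WT than the floor of 3 counts per 2D WT library (edgeR, adjusted p = 0.000704). Slc4a7 stood at 79.8, 88.8 and 72.4 CPM in 2D WT and at 67.4, 89.4 and 85.2 CPM in 3D WT. These ranges overlapped (log2 0.01 ± 0.11 SE, edgeR, adjusted p = 0.977).

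**Figure D1:**
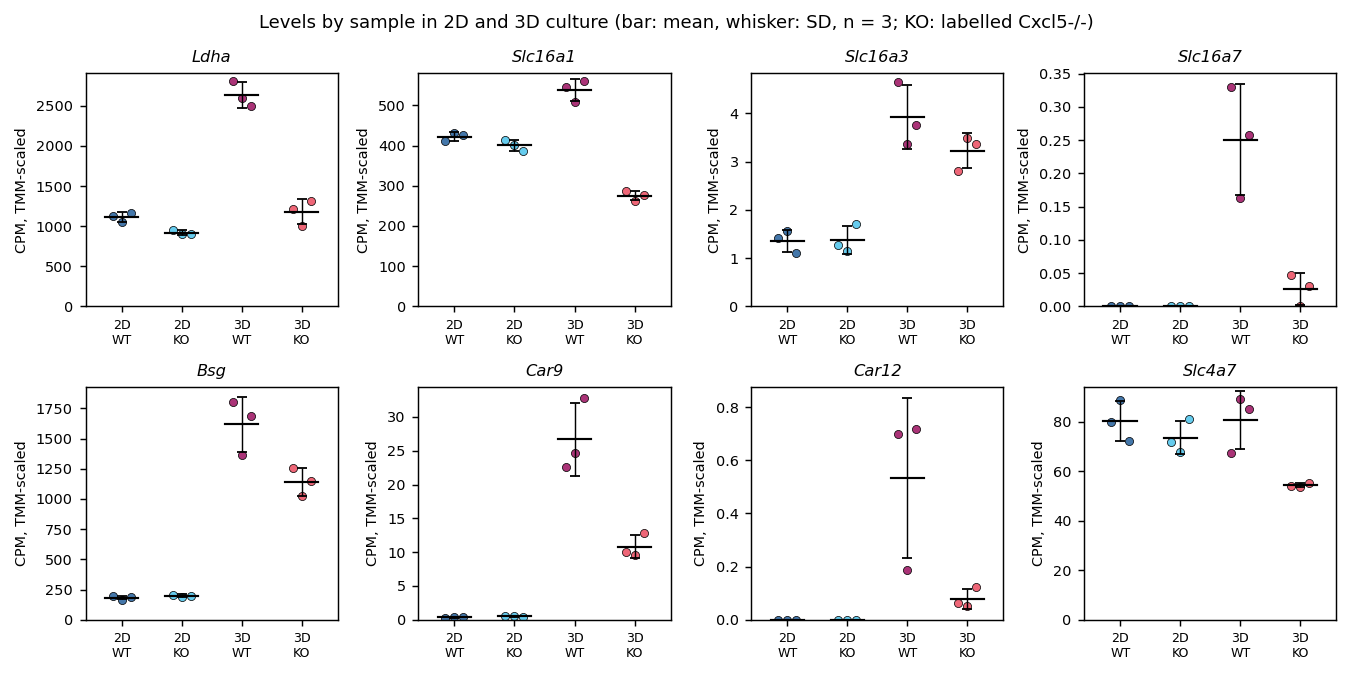
CPM of 8 of the 9 genes in each library of 2D and 3D culture, on linear axes from 0 with 1 point per library, the mean as a bar and the SD as a whisker (n = 3). KO marks libraries labelled Cxcl5-/-. In Ldha, Slc16a1, Bsg and Car9 the 3D WT libraries sit above those of the other groups, and Slc4a7 differs mainly in libraries under the 3D Cxcl5-/- label, at 53.8 to 55.3 CPM.

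The second question was how the libraries labelled Cxcl5-/- differed from WT in each kind of culture. In 3D, 6 of the 7 tested genes were lower and 0 higher, where 25.3% of all genes tested were called lower, 19.7% higher and 45% in either direction. Car12, among the 6, passed the filter through 3D WT, where it was highest, which favoured a call of lower. In 2D, 0 of the 7 were called (7.03% of all genes tested, 3.86% higher and 3.17% lower), with 1 of them, Ldha, at an unadjusted p under 0.05, and DESeq2 also called 0. The test of the difference between the cultures called 4 of the 7, all lower in 3D, against 16.1% of all genes called lower, 11.1% higher and 27.2% in either direction. With library totals that split turned, from 40.92% to 77.14% of called genes higher and from a median of -0.05 to 0.32.

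Ldha fell to 1218, 1006 and 1314 CPM in libraries under the 3D Cxcl5-/- label, all below the lowest 3D WT library and overlapping the 2D WT range. In 2D, the libraries labelled Cxcl5-/- stood at 951, 897 and 904 CPM, below each 2D WT library, by a log2 fold change of -0.28 ± 0.10 SE (edgeR, adjusted p = 0.118). That value was called when only those groups entered the fit (log2 -0.27, adjusted p = 0.0201). The 3D effect exceeded the 2D effect by -0.88 ± 0.14 SE (edgeR, adjusted p = 0.000405). From lowest to highest mean, the order was 2D Cxcl5-/-, 2D WT, 3D Cxcl5-/- and 3D WT, with overlap only between the middle pair.

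Slc16a1 stood at 286, 263 and 276 CPM in libraries under the 3D Cxcl5-/- label, below all other libraries of the experiment. The fall from 3D WT was 1.96-fold (log2 -0.97 ± 0.07 SE, edgeR, adjusted p = 2.63e-07). In 2D, its values were 413, 401 and 386 CPM and overlapped those of 2D WT (log2 -0.08 ± 0.07 SE, edgeR, adjusted p = 0.673). The 3D effect exceeded the 2D effect by -0.89 ± 0.10 SE (edgeR, adjusted p = 4.59e-05). Slc16a3 was the tested gene not called lower, at 2.81, 3.48 and 3.37 CPM in libraries under the 3D Cxcl5-/- label (log2 -0.29 ± 0.21 SE, edgeR, adjusted p = 0.293), and its value turned to 0.12 with library totals. The Slc16a1 share of both carriers was 98.8% there (difference from 3D WT -0.44 percentage points, two-sided exact permutation test, p = 0.1, the smallest possible). Slc16a7 had 3, 0 and 2 counts.

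Bsg stood at 1256, 1022 and 1150.5 CPM in libraries under the 3D Cxcl5-/- label, still far above 2D, and all below the lowest 3D WT library. Its fall of 1.42-fold (log2 -0.50 ± 0.11 SE, edgeR, adjusted p = 0.00215) was the smallest of the called genes on the log scale, and it was not called with library totals (log2 -0.12, adjusted p = 0.305). In 2D it was 208, 189 and 199.8 CPM, overlapping 2D WT (log2 0.13 ± 0.11 SE, edgeR, adjusted p = 0.643). The difference between the cultures was -0.63 ± 0.16 SE (edgeR, adjusted p = 0.00918) and was also lost with library totals (log2 -0.26, adjusted p = 0.142). With that scaling, the all-gene median of this comparison was 0.35 in place of -0.04, and 75.83% of called genes were higher in place of 43.87%.

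Car9 stood at 10.02, 9.60 and 12.8 CPM in libraries under the 3D Cxcl5-/- label. This was 2.47-fold under 3D WT without overlap (log2 -1.31 ± 0.19 SE, edgeR, adjusted p = 7.3e-05). In 2D the values of 0.474, 0.611 and 0.339 CPM overlapped those of 2D WT (log2 0.48 ± 0.28 SE, edgeR, adjusted p = 0.414). The difference between the cultures was -1.79 ± 0.33 SE (edgeR, adjusted p = 0.00158). Gm12454 stood at 1.30 CPM in libraries under the 3D Cxcl5-/- label. Car12 had 4, 3 and 8 counts there (log2 -2.72 ± 0.82 SE, edgeR, adjusted p = 0.0226), and the call was lost without 3D WT replicate 1 (adjusted p = 0.0838) or 3 (0.0898) and without 3D Cxcl5-/- replicate 1 (0.0668) or 2 (0.0866). Its difference between cultures could not be fitted, since both 2D groups were at 0. Slc4a7 stood at 54.2, 53.8 and 55.3 CPM, below each 3D WT library (log2 -0.57 ± 0.11 SE, edgeR, adjusted p = 9e-04), and was not called with library totals (log2 -0.18, adjusted p = 0.283). In 2D it was 71.8, 67.9 and 81.0 CPM (log2 -0.13 ± 0.11 SE, edgeR, adjusted p = 0.637), and the difference between the cultures missed the threshold (-0.44 ± 0.16 SE, edgeR, adjusted p = 0.0502).

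**Figure D2:**
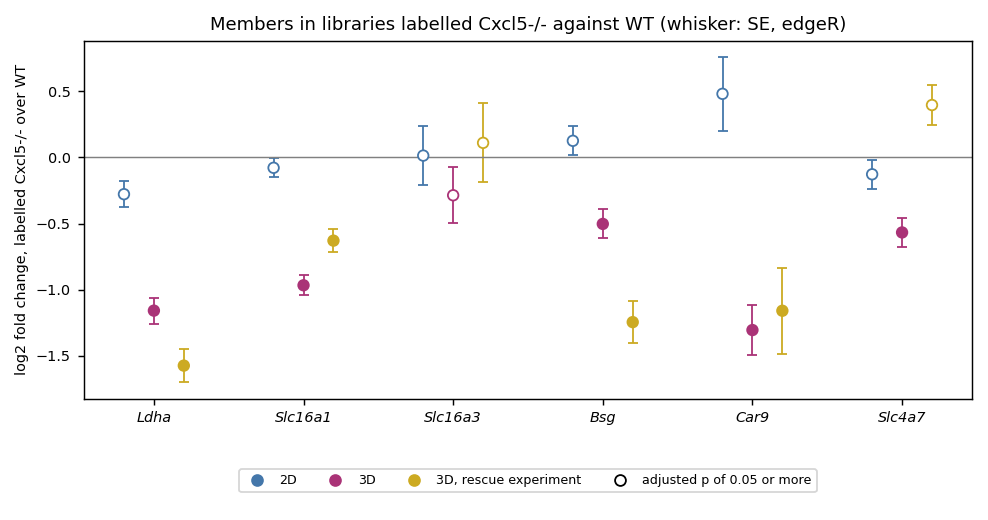
Log2 fold change (edgeR, whisker SE) of 6 genes in libraries labelled Cxcl5-/- against WT in 2D (n = 3 and 3), in 3D (n = 3 and 3) and in the 3D rescue experiment (n = 2 and 2), with filled points for an adjusted p under 0.05. Ldha, Slc16a1, Bsg and Car9 lie below 0 in both 3D experiments and near or above it in 2D except for Ldha at -0.28, while Slc4a7 lies at -0.57 in one 3D experiment and 0.40 in the other.

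Within the cells labelled Cxcl5-/-, all 7 tested genes were called between 3D and 2D, where 57% of all genes tested were (28.7% higher in 3D and 28.2% lower). Of the 7, 5 were higher in 3D and 2 lower. Car12, at 0 counts in 2D, could only be called higher. Bsg (log2 2.52 ± 0.12 SE, edgeR, adjusted p = 1.4e-09), Car9 (4.505 ± 0.23 SE, adjusted p = 3.62e-09), Slc16a3 (1.23 ± 0.22 SE, adjusted p = 0.000291) and Car12, from 0 to between 3 and 8 counts, were higher in 3D. Ldha was higher by 0.36 ± 0.10 SE (edgeR, adjusted p = 0.0056). Slc16a1 and Slc4a7 went the other way. Slc16a1 was lower in 3D by -0.54 ± 0.07 SE (edgeR, adjusted p = 2.87e-05), without overlap. Slc4a7 was lower by -0.43 ± 0.11 SE (edgeR, adjusted p = 0.004), a call that was lost with library totals (log2 -0.28, adjusted p = 0.0813).

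The rescue experiment repeated the 3D comparison of WT with Cxcl5-/- in other libraries. Of the 8 tested genes, 6 were lower in rescue Cxcl5-/- and 0 higher, where 24.3% of all genes tested were called lower, 17.6% higher and 41.9% in either direction. Among the 6, Slc16a7 had 0 counts in both rescue Cxcl5-/- libraries. It passed the filter through other groups and could only be called lower. The median log2 fold change of all genes tested was -0.30 here. With 2 samples per group, leaving out any 1 of the 4 libraries left 3 or 4 of the genes called, and those lost were Slc16a7, Car9 and Car12.

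Ldha stood at 2158 and 2057 CPM in rescue WT and at 706 and 708 CPM in rescue Cxcl5-/-, a fall of 2.98-fold (log2 -1.58 ± 0.13 SE, edgeR, adjusted p = 3.5e-06). Slc16a1 stood at 272 and 266 CPM and at 173 and 175 CPM in the same order (log2 -0.63 ± 0.09 SE, edgeR, adjusted p = 0.000181). Bsg went from 1375 and 1266 CPM to 561 and 552 CPM, a fall of 2.37-fold (log2 -1.25 ± 0.16 SE, edgeR, adjusted p = 0.000111). For each of these genes both knockout libraries lay far below both WT libraries. Slc16a3 stood between 2.18 and 3.74 CPM in all 10 rescue libraries, with overlap between every pair of groups.

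Car9 stood at 6.24 and 8.89 CPM in rescue WT and at 3.22 and 3.55 CPM in rescue Cxcl5-/- (log2 -1.16 ± 0.33 SE, edgeR, adjusted p = 0.0161). The call was lost without rescue WT replicate 2 (adjusted p = 0.0895) and without rescue Cxcl5-/- replicate 1 (0.0847) or 2 (0.0576). Car12 had 45 and 37 counts in rescue WT and 10 and 9 in rescue Cxcl5-/- (log2 -2.19 ± 0.73 SE, edgeR, adjusted p = 0.0343), lost when any 1 of these libraries was left out (adjusted p = 0.119 to 0.182). Slc16a7 had 45 and 27 counts in rescue WT and 0 in both rescue Cxcl5-/- libraries. This was at least 12.7-fold over the floor of 3 counts per library (edgeR, adjusted p = 0.0227), lost without rescue WT replicate 1 (adjusted p = 0.0661) and without rescue Cxcl5-/- replicate 1 (0.0958) or 2 (0.0972). The low counts of Car12 and Slc16a7 moved with the number of genes over 3 counts given above, which was highest in rescue WT, and that part was not tested. Slc4a7 was higher rather than lower, at 64.9 and 63.4 CPM against 45.6 and 51.9 CPM in rescue WT, and missed the threshold (log2 0.40 ± 0.15 SE, edgeR, adjusted p = 0.0509).

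The next question was which of these levels came back when Hif1a or Myc was overexpressed in Cxcl5-/- cells. Hif1aOE changed 4 of the 8 tested genes against rescue Cxcl5-/-, with Ldha, Slc16a1 and Bsg higher and Slc4a7 lower (35.5% of all genes tested were called, 20.5% higher and 15% lower). MycOE changed 4 of the 8, with Ldha, Slc16a1, Bsg and Car9 higher (39.6% of all genes tested, 21.6% higher and 18% lower). Both comparisons share the rescue Cxcl5-/- libraries. Myc itself lay far above its rescue WT level in MycOE Cxcl5-/-. With library totals, the share of called genes that were higher turned from 57.81% to 43.62% with Hif1aOE and from 54.56% to 36.34% with MycOE.

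Ldha stood at 1465, 1723 and 1324 CPM in Hif1aOE Cxcl5-/- and at 1967, 1861 and 1799.9 CPM in MycOE Cxcl5-/-, all above both rescue Cxcl5-/- libraries. The rise was 2.13-fold with Hif1aOE (log2 1.09 ± 0.12 SE, edgeR, adjusted p = 2.76e-05) and 2.65-fold with MycOE (1.41 ± 0.12 SE, adjusted p = 3.56e-06). No library of either line reached the lower rescue WT value of 2057 CPM. Against rescue WT, Ldha was called lower in Hif1aOE Cxcl5-/- (log2 -0.49 ± 0.11 SE, edgeR, adjusted p = 0.00996, and 0.0773 without rescue WT replicate 1), and in MycOE Cxcl5-/- the difference missed the threshold (-0.17 ± 0.11 SE, adjusted p = 0.277). Ldhb stayed at 0 counts in all but 1 rescue library, and its share was 0.00466% in MycOE Cxcl5-/- and 0% in rescue Cxcl5-/- (two-sided exact permutation test, p = 1, where 0.2 is the smallest p possible).

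Slc16a1 stood at 250.04, 259 and 240.4 CPM in Hif1aOE Cxcl5-/- and at 277, 285 and 311 CPM in MycOE Cxcl5-/-. These were above rescue Cxcl5-/- by log2 fold changes of 0.52 ± 0.08 SE (edgeR, adjusted p = 0.000368) and 0.74 ± 0.08 SE (adjusted p = 2.34e-05). The Hif1aOE libraries lay just under both WT libraries and the MycOE libraries just above them, and neither difference from WT was called. The Slc16a1 share of the summed Slc16a1 and Slc16a3 counts was 98.3% in rescue Cxcl5-/-, 99.0% with Hif1aOE and 99.1% with MycOE (two-sided exact permutation tests, p = 0.4 and p = 0.2, where 0.2 is the smallest p possible).

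Bsg stood at 1132, 1525 and 1111 CPM in Hif1aOE Cxcl5-/- and at 2895, 2696 and 2320.3 CPM in MycOE Cxcl5-/-. It rose from rescue Cxcl5-/- by 2.26-fold with Hif1aOE (log2 1.17 ± 0.15 SE, edgeR, adjusted p = 0.000101) and by 4.74-fold with MycOE (2.24 ± 0.16 SE, adjusted p = 1.18e-06). The Hif1aOE libraries spanned the WT values. The MycOE libraries all exceeded WT, by a log2 fold change of 1.00 ± 0.15 SE (edgeR, adjusted p = 0.00052).

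Car9 parted the overexpression lines. It stood at 2.86, 4.02 and 5.66 CPM in Hif1aOE Cxcl5-/-, which overlapped rescue Cxcl5-/- (log2 0.31 ± 0.31 SE, edgeR, adjusted p = 0.466), and at 61.0, 95.1 and 55.8 CPM in MycOE Cxcl5-/-. The latter was 20.8-fold above rescue Cxcl5-/- (log2 4.38 ± 0.33 SE, edgeR, adjusted p = 1.89e-06) and 9.33-fold above rescue WT (3.22 ± 0.31 SE, adjusted p = 2.28e-05). Against rescue WT, the Hif1aOE value of -0.85 ± 0.29 SE missed the threshold (edgeR, adjusted p = 0.0512). The antisense gene Gm12454 stood at 2.68 CPM in MycOE Cxcl5-/-, 1.15 CPM in Hif1aOE Cxcl5-/-, 0.748 CPM in rescue Cxcl5-/- and 2.88 CPM in rescue WT, so its order of levels was not that of Car9.

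Car12 did not return to the WT level in either line. It had 9, 11 and 15 counts with Hif1aOE and 10, 3 and 10 with MycOE, all below the WT libraries. Against rescue WT it was lower by -2.06 ± 0.63 SE with Hif1aOE (edgeR, adjusted p = 0.0379) and by -2.55 ± 0.65 SE with MycOE (adjusted p = 0.0125). The Hif1aOE call was lost when any 1 of the 5 libraries was left out (adjusted p = 0.0566 to 0.253), and the MycOE call was lost without rescue WT replicate 1 (0.126) or 2 (0.0704). Slc16a7 had 8, 6 and 0 counts with Hif1aOE and 12, 0 and 18 with MycOE, and was called in neither comparison with rescue Cxcl5-/-. Slc4a7 stood at 42.6, 35.5 and 40.3 CPM in Hif1aOE Cxcl5-/-, below every other rescue library (log2 -0.70 ± 0.13 SE against rescue Cxcl5-/-, edgeR, adjusted p = 0.0016). In MycOE Cxcl5-/- it stood at 51.2, 66.8 and 71.9 CPM, spanning rescue Cxcl5-/-.

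**Figure D3:**
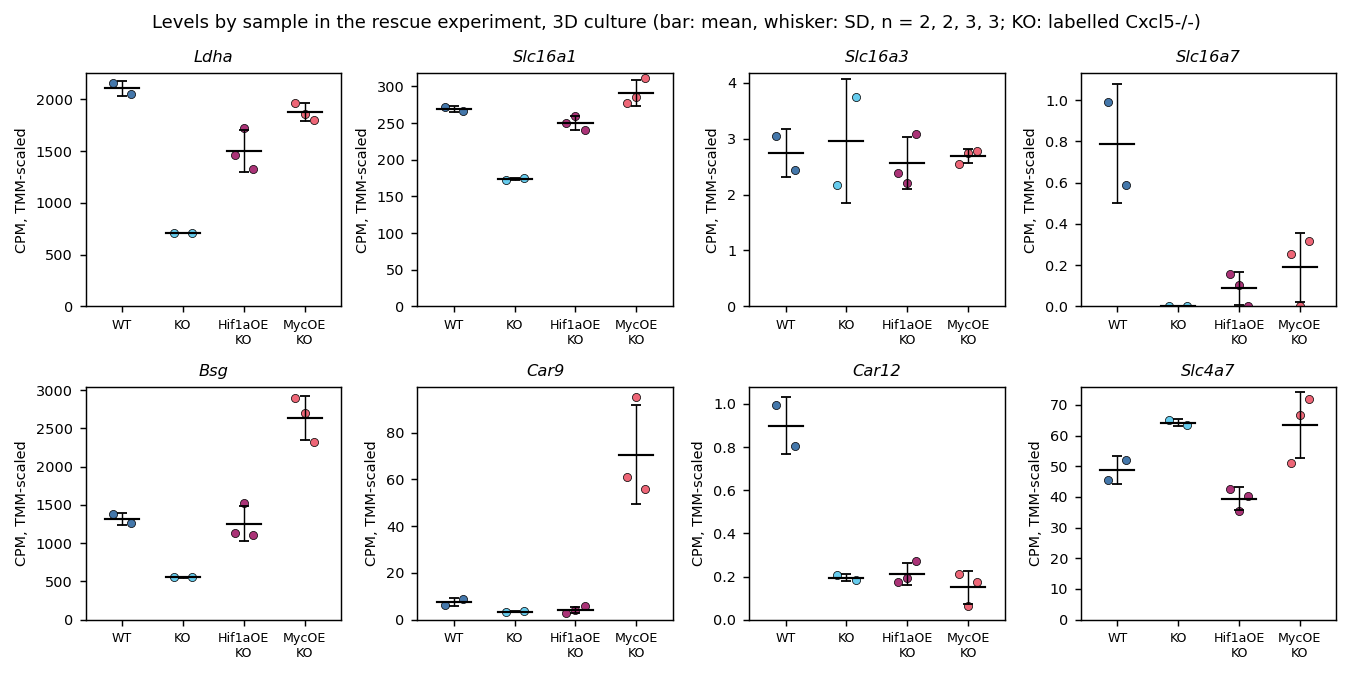
CPM of 8 of the 9 genes in each library of the rescue experiment, all in 3D culture, on linear axes from 0 with 1 point per library, the mean as a bar and the SD as a whisker (n = 2 for WT and for KO, which marks Cxcl5-/-, and n = 3 for each overexpression line). Ldha, Slc16a1 and Bsg sit above KO in both overexpression lines, Car9 does so in MycOE (55.8 to 95.1 CPM) and overlaps KO in Hif1aOE, and Car12 stays under its WT values in all 3 other groups.

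Against rescue WT, 2 of the 8 tested genes were called in Hif1aOE Cxcl5-/- (Ldha and Car12, both lower, with 24.2% of all genes tested called, 13.9% higher and 10.3% lower) and 3 of the 8 in MycOE Cxcl5-/- (Bsg and Car9 higher, Car12 lower, with 31.8% called, 17.1% higher and 14.7% lower). Of all genes called there, 57.47% and 53.71% were higher, which turned to 40.49% and 42.23% with DESeq2 size factors and to 38.11% and 28.49% with library totals. Set directly against each other, MycOE was higher than Hif1aOE in 4 of the 8 genes and lower in 0, where 9.54% of all genes tested were called higher, 9.73% lower and 19.3% in either direction. The share of called genes that were higher was 49.51%, and 36.13% with library totals. These were Car9 (log2 4.08 ± 0.27 SE, edgeR, adjusted p = 1.97e-06), Bsg (1.07 ± 0.13 SE, adjusted p = 0.000168), Slc4a7 (0.68 ± 0.12 SE, adjusted p = 0.00219) and Ldha (0.32 ± 0.10 SE, adjusted p = 0.0477). The Car9, Bsg, Slc4a7 and Ldha libraries of the lines did not overlap. The Ldha call was lost without any 1 of 5 of the 6 libraries (adjusted p = 0.0614 to 0.142), the exception being Hif1aOE Cxcl5-/- replicate 2. Slc16a1 also separated the lines and missed the threshold (log2 0.22 ± 0.07 SE, edgeR, adjusted p = 0.0515).

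The conditioned media addressed whether medium kept on macrophages changed these genes in 3D spheroids. By the study's methods, that medium held L929 cell supernatant, which is not named for the control medium. In M0-CM against Ctrl, macrophage factors, this supernatant and the use of the medium by cells cannot be told apart. In each of the 3 comparisons, 0 of the 6 tested genes were called by edgeR, where 0.0156% of all genes tested were called with M1-CM against Ctrl, 0.0156% with M1-CM against M0-CM and 0% with M0-CM against Ctrl. At an unadjusted p under 0.05 there were 2 of the 6, Ldha and Bsg with M0-CM against Ctrl, and 0 in the other comparisons. DESeq2 called 0 of the 6 in all 3.

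Ldha stood at 1979, 1242 and 2132 CPM in Ctrl, at 2405, 2824 and 2966 CPM with M0-CM and at 2222, 1617 and 2724 CPM with M1-CM. All M0-CM libraries lay above all Ctrl libraries (log2 0.61 ± 0.25 SE, edgeR, adjusted p = 1), and M1-CM overlapped both. Bsg stood at 1371, 438 and 986 CPM in Ctrl and at 1719, 1589 and 1902 CPM with M0-CM, again without overlap (log2 0.90 ± 0.34 SE, edgeR, adjusted p = 1). The second Ctrl library was the lowest of the group in Ldha, Bsg, Slc16a3 and Car9. Slc16a3 stood at 2.58, 0.279 and 1.10 CPM in Ctrl and at 2.98, 2.87 and 2.90 CPM with M0-CM (log2 1.15 ± 0.63 SE, edgeR, adjusted p = 1). With M1-CM it stood at 2.32, 4.59 and 3.36 CPM (log2 1.38 ± 0.63 SE against Ctrl, edgeR, adjusted p = 0.965). Single Ctrl libraries moved these Slc16a3 values, to 2.09 with M0-CM and 2.32 with M1-CM without Ctrl replicate 1 and to 0.65 and 0.91 without Ctrl replicate 2. Slc16a1 ranged from 228 to 378 CPM over the 9 libraries, Car9 from 0.978 to 14.1 CPM and Slc4a7 from 41.1 to 72.9 CPM, with overlapping groups. Ldhb and Slc16a7 had 0 counts in all 9 libraries, and Car12 had 2 counts in 1 library with M1-CM and 0 in the others.

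**Figure D4:**
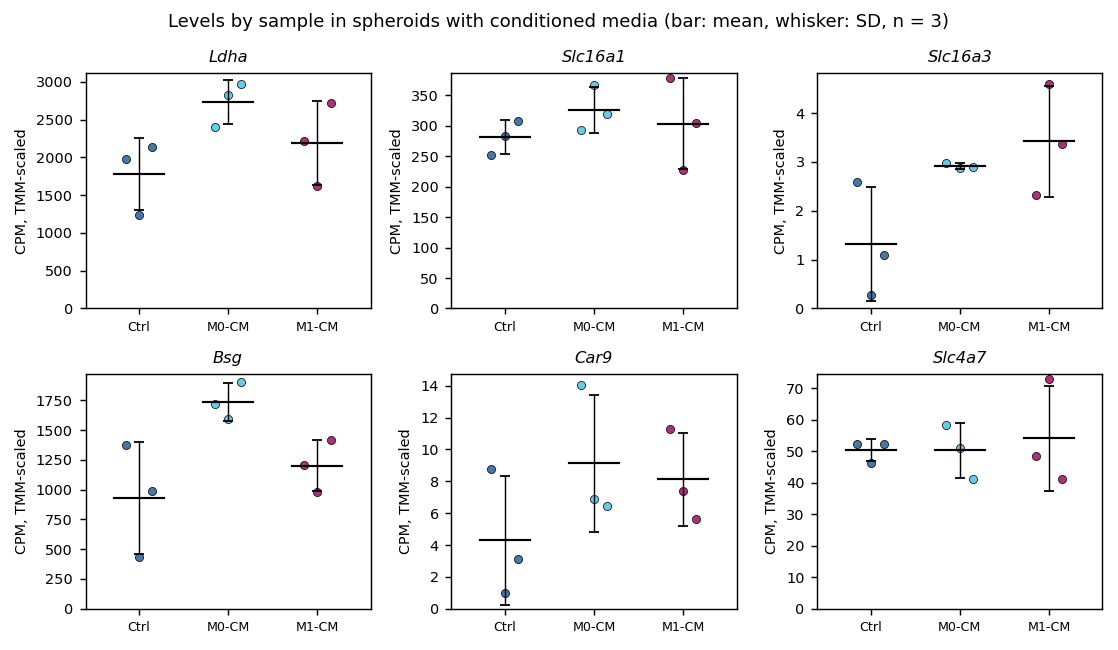
CPM of 6 genes in each spheroid library with Ctrl, M0-CM or M1-CM, on linear axes from 0 with 1 point per library, the mean as a bar and the SD as a whisker (n = 3). The Ctrl group spreads from 438 to 1371 CPM in Bsg and from 0.978 to 8.78 CPM in Car9, and no gene was called between the media.

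Genes that work beside this set were followed as 6 lists. Their counts stand against 22.2% of all genes called higher and 22% lower in 3D WT against 2D WT, and 19.7% higher and 25.3% lower under the 3D Cxcl5-/- label against 3D WT. Among 12 tested lactate neighbours, which hold other lactate enzymes and carriers and the pyruvate dehydrogenase gate, the step from 2D WT to 3D WT raised 5 and lowered 4 (median log2 fold change 0.20, against 0.00 over all genes), and against 3D WT, 4 were higher and 2 lower in libraries under the 3D Cxcl5-/- label (median -0.10, against -0.04 over all genes, turning to 0.28 with library totals). Pdk1, a kinase that shuts pyruvate dehydrogenase and so leaves more pyruvate to Ldha, rose from 37.1 ± 0.665 CPM in 2D WT to 328 ± 26.9 CPM in 3D WT (SD, n = 3, log2 3.14 ± 0.09 SE, edgeR, adjusted p = 3.16e-11). It stood at 290.5 ± 9.85 CPM (SD, n = 3) in libraries under the 3D Cxcl5-/- label (log2 -0.18 ± 0.08 SE, edgeR, adjusted p = 0.0856). Pdk2, a related kinase, rose with 3D culture in WT (log2 2.24 ± 0.25 SE, edgeR, adjusted p = 7.84e-06) and higher again in libraries under the 3D Cxcl5-/- label (1.33 ± 0.23 SE, adjusted p = 0.000346). Pdp1, the phosphatase that opposes these kinases, rose in both comparisons (log2 0.72 ± 0.09 SE and 0.42 ± 0.09 SE, edgeR, adjusted p = 1.83e-05 and 0.00161). Ldhd, which handles D-lactate, rose from 2D WT to 3D WT by 0.74 ± 0.19 SE (edgeR, adjusted p = 0.00542).

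Among the 7 other carbonic anhydrases with a test, 4 rose and 1 fell from 2D WT to 3D WT (median log2 fold change 1.07), and 0 were higher and 2 lower in libraries under the 3D Cxcl5-/- label than in 3D WT (median -0.45), a share near that of all genes. Car6, a secreted form known from saliva, had 0 counts in all 2D libraries and stood at 14.0 ± 0.217 CPM (SD, n = 3) in 3D WT. This was at least 242-fold over the floor of 3 counts per 2D WT library, and it fell to 1.52 ± 0.279 CPM (SD, n = 3) in libraries under the 3D Cxcl5-/- label (log2 -3.20 ± 0.20 SE, edgeR, adjusted p = 1.07e-06). The brain-expressed Car11, which lacks enzyme activity, rose in 3D WT by 2.93 ± 0.35 SE (edgeR, adjusted p = 1.17e-05), as did Car15 by 1.07 ± 0.35 SE (adjusted p = 0.0225), and the cytosolic Car13 fell by 0.55 on the log2 scale (SE 0.10, adjusted p = 0.000633). Of 7 tested genes listed with the other bicarbonate carriers, 1 was higher and 0 lower in 3D WT. In libraries under the 3D Cxcl5-/- label, 2 were higher and 2 lower. Slc4a11 was listed by its family name, not for shown bicarbonate transport. Slc4a11 rose with 3D culture in WT (log2 0.86 ± 0.22 SE, edgeR, adjusted p = 0.00635) and was lower in libraries under the 3D Cxcl5-/- label (-1.23 ± 0.23 SE, adjusted p = 0.000613). There, the electrogenic cotransporter Slc4a4 was also lower (-0.46 ± 0.15 SE, adjusted p = 0.0214), while the anion exchangers Slc4a3 (0.43 ± 0.14 SE, adjusted p = 0.0262) and Slc4a2 (0.36 ± 0.11 SE, adjusted p = 0.0154) were higher.

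The remaining lists hold routes of proton exit and sensing. Among 9 sodium proton exchangers and partners with a test, 0 rose and 2 fell from 2D WT to 3D WT, and 4 were higher and 2 lower in libraries under the 3D Cxcl5-/- label than in 3D WT. There, the endosomal and Golgi exchangers Slc9a8 (log2 0.74 ± 0.10 SE, edgeR, adjusted p = 4.43e-05) and Slc9a9 (0.59 ± 0.10 SE, adjusted p = 0.000384) were higher, and the scaffold Slc9a3r2 was lower (-0.76 ± 0.18 SE, adjusted p = 0.0031). Among 21 vacuolar proton pump genes with a test, 2 rose and 11 fell from 2D WT to 3D WT (median log2 fold change -0.43), and 11 were higher and 3 lower in libraries under the 3D Cxcl5-/- label (median 0.38). With library totals these counts were 1 and 15, and 16 and 0. Atp6v0a1 fell by 1.09 on the log2 scale with 3D culture in WT (SE 0.13, edgeR, adjusted p = 1.62e-05) and was higher in libraries under the 3D Cxcl5-/- label by 1.67 ± 0.14 SE (adjusted p = 4.34e-07), as Atp6v1g2 was by 1.53 ± 0.25 SE (adjusted p = 0.000214). Atp6v0d1 was called in the latter comparison (0.99 ± 0.10 SE, adjusted p = 2.62e-06), and the kidney-type subunit Atp6v0a4 rose in both (2.56 ± 0.54 SE and 2.10 ± 0.47 SE, adjusted p = 0.00152 and 0.00263) from a low level of 0.312 CPM in 2D WT. Of 4 proton sensing receptors tested, the acid-sensing channel Asic1 was the 1 called, lower in 3D WT (-0.81 ± 0.14 SE, edgeR, adjusted p = 0.000258) and higher in libraries under the 3D Cxcl5-/- label (0.77 ± 0.14 SE, adjusted p = 0.000418).

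**Figure D5:**
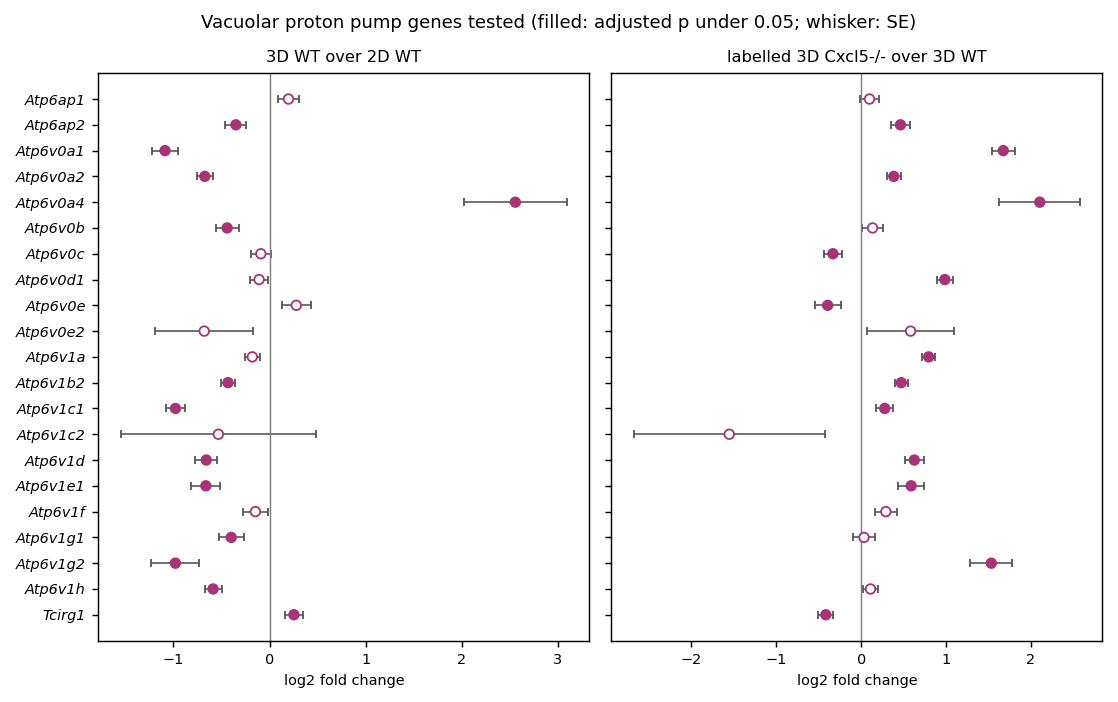
Log2 fold change (edgeR, whisker SE, n = 3 per group) of the 21 tested vacuolar proton pump genes in 3D WT over 2D WT and in libraries labelled 3D Cxcl5-/- over 3D WT, with filled points for an adjusted p under 0.05. On the left 11 of the 13 called genes lie below 0, and on the right 11 of the 14 lie above it.

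In the rescue experiment, where 3D WT and Cxcl5-/- cells were compared again, 7 of 23 tested vacuolar proton pump genes were higher and 0 lower in Cxcl5-/-, where 17.6% of all genes were called higher and 24.3% lower, with a median of -0.30. Atp6v0a1 stood at 48.4 ± 4.29 CPM in rescue WT, 138 ± 2.19 CPM in rescue Cxcl5-/- (SD, n = 2), 63.5 ± 7.95 CPM in Hif1aOE Cxcl5-/- and 68.8 ± 1.95 CPM in MycOE Cxcl5-/- (SD, n = 3). The list as a whole did not go back in this way. With TMM scaling, 15 of the 23 were higher than rescue WT with Hif1aOE and 0 lower (13.9% and 10.3% of all genes). With MycOE, 13 were higher than rescue WT and 1 lower (17.1% and 14.7% of all genes). Pdk1 stood at 296 ± 3.30 CPM in rescue WT, 185 ± 3.78 CPM in rescue Cxcl5-/- (SD, n = 2), 203 ± 12.1 CPM with Hif1aOE and 329 ± 14.6 CPM with MycOE (SD, n = 3). Among the lactate neighbours, 2 of 17 tested were higher and 8 lower in rescue Cxcl5-/-, against the same shares of all genes. Only 12 of the 17 had over 3 counts in any rescue Cxcl5-/- library, against 16 in rescue WT. Genes at 3 counts or fewer there entered the test through other groups, which favoured a call of lower. Car6 stood at 27.7 ± 3.64 CPM in rescue WT, 0.831 ± 0.0273 CPM in rescue Cxcl5-/- (SD, n = 2), 6.43 ± 1.73 CPM with Hif1aOE and 2.61 ± 1.37 CPM with MycOE (SD, n = 3). Like Car12, Car6 stayed under its WT level in both lines, but its mean lay above rescue Cxcl5-/- in both, more so with Hif1aOE. Car12 stood at 0.195 CPM in rescue Cxcl5-/-, 0.213 CPM with Hif1aOE and 0.151 CPM with MycOE.

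The genes whose levels ran most like those of 3 of the 9 genes were found by the lower of 2 Pearson correlations of log2 CPM, over the 12 samples of 2D and 3D culture and over the 10 rescue samples, among 14104 genes. These are descriptions over samples that share culture and genotype. Ldha was most like the glycolytic enzymes Tpi1 (r = 0.995 and 0.995) and Pgk1 (0.972 and 0.995) and the Pgk1 copy Pgk1-rs7 (0.969 and 0.992), whose reads cannot be told apart from those of Pgk1 with certainty. Car9 was most like Pax9 (0.970 and 0.973), Napsa (0.972 and 0.959) and Cryz (0.946 and 0.946). Slc16a3 had no comparably close gene, with Hipk1 (0.934 and 0.718), Gm15983 (0.747 and 0.698) and Wdfy1 (0.780 and 0.664) as the nearest.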

How the data were processed

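The deposited counts were whole-number gene counts, not normalized. From total RNA, the authors prepared TruSeq stranded libraries, read them in pairs on a NovaSeq, aligned to GRCm38 with HISAT2 and counted with StringTie. The annotation release, the conversion to counts and any use of strand in counting are not given in the sources used here. All columns of values were used, and samples were grouped by their labels. Running cell-line names in the rescue labels were set aside for Panc02, which the study's methods name.

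Each of the 3 tables was fitted by itself with edgeR 4.0.16 in R 4.3.3 (TMM scaling, filter on low counts by group, quasi-likelihood test with all groups of the table, Benjamini-Hochberg adjustment over all genes tested). Each SE is the absolute log2 fold change over the root of the F statistic. Folds against groups at 0 used a floor of 3 counts per library. Shares were compared with exact permutation tests (scipy 1.17.1). Alternatives were the DESeq2 1.42.0 Wald test, other scalings, filters, samples in the fit, a replicate block and each sample left out.

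The 9 genes and the 6 lists were chosen with earlier results of these data known. The text names all 9 genes, from each list up to 4 genes with the largest absolute log2 fold changes among those called, with a mean of at least 50 counts, in the comparisons of 3D WT with 2D WT and of 3D Cxcl5-/- with 3D WT, Cxcl5, Hif1a and Myc as a check of the labels, and the 3 genes most like Ldha, Slc16a3 and Car9. Slc9a3r1 and Slc9a3r2 carry newer symbols in the rescue table and were matched by identifier. The result for 1 gene under this rule is not reported here. Total counts of 41542533 to 78498230 per sample leave genes of a few counts with wide counting error.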

Additional observations from a re-analysis of the deposited data

Results flagged for a closer look

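The effect of 3D culture differed between cells labelled Cxcl5-/- and WT for 4 of the 7 tested genes by the edgeR test of that difference. Of all genes tested, 27.2% were called, 16.1% lower and 11.1% higher. Car12, among the 7, could not be fitted. On the log2 scale, the differences of the 4 genes were -0.88 for Ldha, -0.89 for Slc16a1, -0.63 for Bsg and -1.79 for Car9. Slc4a7 took opposite directions in the 3D comparisons of the labelled Cxcl5-/- cells with WT, at -0.57 in the culture experiment, where each of the 3 labelled libraries lay below each WT library, and at 0.40 in the rescue experiment, where both Cxcl5-/- libraries lay above both WT libraries. The difference between the experiments was not tested. Groups of 2 or 3 samples were too small for a test of single samples that stand apart.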

How the results depend on the processing

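Of 101 tested values of the 9 genes, 46 were called, and 21 changed sign under an alternative, of which 0 were called. Counts of called genes under an alternative are given here without the share of all genes called under it. They show how the calls moved and not whether these genes differ from others. An absolute log2 fold change above 1 as a further limit left 3 genes called between 3D Cxcl5-/- and 3D WT, 4 between 3D and 2D Cxcl5-/-, 1 in the difference between cultures, 2 for Hif1aOE Cxcl5-/- against rescue Cxcl5-/-, 1 for Hif1aOE Cxcl5-/- against rescue WT and 2 for MycOE against Hif1aOE Cxcl5-/-, by construction. With only the groups compared in the fit, 1 gene was called between 2D Cxcl5-/- and 2D WT. For Hif1aOE Cxcl5-/- against rescue WT, the count of 2 became 5 with the DESeq2 Wald test, 5 with DESeq2 size factors, 1 with no filter and 4 with at least 10 counts in every sample, and the cause was not tested. Leaving out 1 replicate in turn gave 1 to 2 called genes there and 3 to 4 for rescue Cxcl5-/- against rescue WT, and a Ldhb share difference between MycOE Cxcl5-/- and rescue Cxcl5-/- of 0 to 0.00699 percentage points. Slc4a7 between 3D WT and 2D WT, which was not called, was -0.21 with library totals and -0.0494 to 0.14 with 1 replicate left out, and Slc16a3 between 3D Cxcl5-/- and 3D WT, also not called, was 0.12 with library totals. With library totals, the median of all genes went from 0.00 to -0.21 for 3D WT against 2D WT, from -0.17 to -0.46 for MycOE Cxcl5-/- against rescue WT and from -0.10 to -0.27 for Hif1aOE Cxcl5-/- against rescue WT, and the call of Ldha between MycOE and Hif1aOE Cxcl5-/- was lost (log2 0.21, edgeR, adjusted p = 0.0804). That call was also lost with no filter (adjusted p = 0.0623) and with only the groups compared (0.0636), and no filter ended the calls of Car12 for Hif1aOE Cxcl5-/- against rescue WT (0.0556) and Slc16a7 for rescue Cxcl5-/- against rescue WT (0.0537).

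Samples with the same replicate number did not deviate together on average (mean r = 0.025, 0.037 and 0.004 in the culture, medium and rescue tables). Single pairs in the medium table ranged from r = -0.236 to 0.359. With so few samples per group, this check cannot exclude pairing by number. A replicate block ended the calls of Car12 for rescue Cxcl5-/- against rescue WT (log2 -2.18, edgeR, adjusted p = 0.0752) and Hif1aOE Cxcl5-/- against rescue WT (-2.22, adjusted p = 0.0806), brought Slc4a7 in the former (0.40, adjusted p = 0.0405) and Car9 in the latter (-0.89, adjusted p = 0.0194) past the threshold, and changed no other call. Depth limits Ldhb, Slc16a7 and Car12, which had at most 45 counts in any library.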
